A study of Homo sapiens with 18 samples.

Results

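The U5 small nuclear ribonucleoprotein (snRNP) and the U4/U6.U5 tri-snRNP are represented here by 10 protein genes, PRPF8, SNRNP200, EFTUD2, SNRNP40, PRPF6, DDX23, CD2BP2, TXNL4A, PRPF3 and PRPF31. They were chosen by name, as genes of this particle, from the 57500 genes counted in each library, and all 10 had enough reads to be tested in every comparison. Their reads ranged from 1648 for PRPF3 to 40037 for PRPF8 in a single library.

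The tri-snRNP is the building block that brings U4, U6 and U5 snRNA into the spliceosome. PRPF8 forms the scaffold around the catalytic centre, the helicase SNRNP200 (Brr2) unwinds U4 from U6 during activation, and the GTPase EFTUD2 regulates that step and the later disassembly. SNRNP40 and TXNL4A are further U5 proteins, PRPF6 bridges the U5 and U4/U6 snRNPs, DDX23 (Prp28) displaces U1 from the 5′ splice site, and CD2BP2 accompanies the U5 snRNP only until the tri-snRNP is formed. PRPF3 and PRPF31 belong to the U4/U6 snRNP. Inherited changes in several of these genes, PRPF3, PRPF31, PRPF6, PRPF8 and SNRNP200 among them, cause retinitis pigmentosa.

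Poly(A)-selected RNA was sequenced from 18 libraries of 2 sarcoma cell lines, with 3 libraries, lettered A, B and C, in each of 6 groups. ES8 is an Ewing sarcoma line and Rh30 an alveolar rhabdomyosarcoma line. All cells carried dCas9-KRAB, a catalytically dead Cas9 fused to a repressor that silences the promoter a guide RNA points it to (CRISPRi), and all were collected after 72 h of puromycin selection for the guide. In each line the groups were parental cells with a control guide (sgCTL), parental cells with a guide against DNAJC17 (sgDNAJC17, the knockdown), and a stable population expressing 3xFLAG-DNAJC17-dRRM, DNAJC17 without its RNA recognition motif, which also received sgDNAJC17 (called ΔRRM below). DNAJC17 is a J-domain protein, a family of co-chaperones, that carries such a motif. No library of ΔRRM cells with the control guide was analysed here, so what the transgene or the selection of the stable population does by itself cannot be told apart from its effect on the knockdown. Cells were plated in triplicate, and p-values measure the spread between those samples, which may be technical.

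Between 35342393 and 48245989 reads were assigned to genes per library. DNAJC17 stood at 11.3 to 12.6 CPM (counts scaled to 1000000 reads a library) in ES8 sgCTL, 1.53 to 1.93 in ES8 sgDNAJC17, 10.8 to 12.0 in Rh30 sgCTL and 2.21 to 2.73 in Rh30 sgDNAJC17, and at 285 to 316 and 331 to 364 in the ΔRRM cells of ES8 and Rh30, where reads of the transgene are counted too. Of its exonic bases, 26.1% overlap GCHFR, C15orf62 or ZFYVE19 on the opposite strand. The counting is not stated to use strand, so reads of these genes cannot be told apart there. The 5 Ewing sarcoma markers together reached 376 to 439 CPM in ES8 and at most 0.269 in Rh30, and the 5 rhabdomyosarcoma markers 1965 to 3075 CPM in Rh30 against 61.5 to 95.6 in ES8. In ES8, sgDNAJC17 library A stood apart from B and C: the chi-square per degree of freedom over genes was 24.6 and 28.3 for its pairs and 2.53 between B and C. The same measure set ES8 ΔRRM library B (28.8 and 18.6, against 8.32 between A and C), Rh30 sgDNAJC17 library A (14.5 and 26.0, against 6.62) and Rh30 sgCTL library A (9.34 and 10.5, against 3.89) apart from the others of their groups, and it ran from 2.82 to 12.2 in the remaining groups. Without Rh30 sgCTL A, 1 of the 10 genes rose and 1 fell in the Rh30 knockdown in place of 2 and 2, and the counts between Rh30 ΔRRM and control cells were the same. No pair of libraries of a group agreed within sampling noise. Of 10 epithelial markers, genes of another cell type, 4 had enough reads to be tested in the Rh30 knockdown and all 4 (KRT8, KRT18, KRT19 and CDH1) rose, as they did in Rh30 ΔRRM cells. The 10 together (KRT8, KRT18, KRT19, CDH1, EPCAM, CLDN7, GRHL2, RAB25, AGR2 and MAL2) summed to 1.18 to 1.61 CPM in sgCTL, with CLDN7 and RAB25 at 0, 12.7 to 18.5 in sgDNAJC17 and 13.9 to 15.8 in ΔRRM. In ES8 the same sum was 34.0 to 44.9 CPM in all 9 libraries. The part of these cells or genes in the Rh30 results below was not tested.

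In the control libraries the 10 genes differed widely in level. RPKM is CPM divided by the exonic length in kb. That length counts all annotated exons of a gene, not the transcripts expressed, so the order of genes depends on the annotation too. On this scale PRPF8 was the highest of the 10 in ES8 sgCTL at 70.5 ± 1.95 (SD, n = 3) and PRPF3 the lowest at 8.85 ± 0.043. Between them stood DDX23 at 61.5 RPKM, PRPF6 at 51.1, SNRNP200 at 50.8, EFTUD2 at 45.1, PRPF31 at 34.5, SNRNP40 at 27.5, CD2BP2 at 23.0 and TXNL4A at 15.0, and among neighbours in this order only PRPF6 and SNRNP200 overlapped over the libraries. In Rh30 sgCTL the order was different at the top and alike at the bottom. EFTUD2 led with 62.3 ± 1.04 RPKM, followed by SNRNP40 at 48.4, SNRNP200 at 39.2, PRPF6 at 36.7, PRPF31 at 34.3, DDX23 at 32.4 and PRPF8 at 30.0. CD2BP2 at 21.5, TXNL4A at 19.2 and PRPF3 at 9.74 ± 0.377 came last, and SNRNP200 and PRPF6 were again the only neighbours that overlapped.

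**Figure D1:**
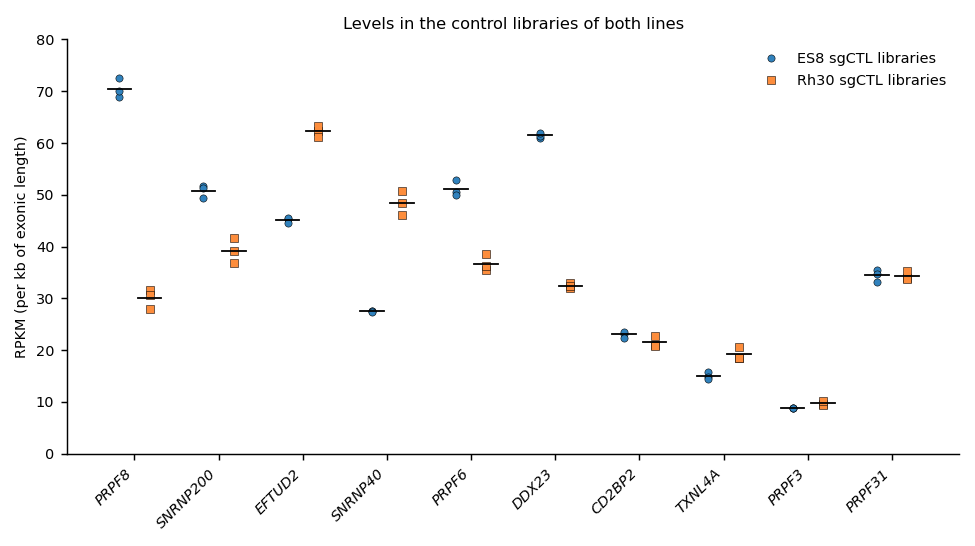
Level of each of the 10 genes in RPKM (y axis, linear) in the 3 sgCTL libraries of ES8 (circles) and of Rh30 (squares), with a bar at the mean. PRPF8 (70.5 against 30.0) and DDX23 (61.5 against 32.4) were higher in ES8, SNRNP40 (27.5 against 48.4) and EFTUD2 (45.1 against 62.3) were higher in Rh30, and PRPF3 was lowest in both.

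Between the control cells of the lines, 4 of the 10 genes were higher and 5 lower in Rh30 at an adjusted p under 0.05 (edgeR's quasi-likelihood test, Benjamini-Hochberg adjustment over all genes tested). Of all genes tested, 42.0% were higher and 45.5% lower, so most genes of any kind differed between the lines. The scaffold gene PRPF8 differed most, with a log2 difference of -1.25 (SE 0.048, adjusted p = 2.99e-26), and was the only member past a fold difference of 2. DDX23 was lower in Rh30 by a log2 difference of -0.94 (SE 0.045, adjusted p = 8.93e-23) and SNRNP40 higher by 0.80 (SE 0.048, adjusted p = 2.54e-19). PRPF6 (-0.49) and SNRNP200 (-0.39) were lower in Rh30, and EFTUD2 (0.45) and TXNL4A (0.34) higher. CD2BP2 (-0.11) and PRPF3 (0.12) passed the threshold narrowly, each losing it when any of 4 single libraries was left out and PRPF3 turning to -0.09 with library totals alone, and PRPF31 differed by -0.02.

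Knockdown of DNAJC17 raised PRPF3 in both lines, the only one of the 10 genes called in the same direction in both. The share of all genes tested that was called alike in both lines was not determined, so this count has no background beside it. SNRNP200 was lower in both without overlap of the libraries, but narrowly missed the threshold in ES8 (adjusted p = 0.0528). The knockdown raised DDX23 and PRPF6 in ES8 alone of the lines, while PRPF31 and SNRNP200 fell and SNRNP40 rose in Rh30 and EFTUD2 fell in ES8. Thus 3 of 10 rose and 1 fell in ES8, where 13.6% of all genes tested rose and 13.8% fell. In Rh30, 2 rose and 2 fell, against 16.1% and 16.2% of all genes. The median log2 fold change of the 10 was 0.04 in ES8 and -0.06 in Rh30, beside -0.02 and 0.0045 over all genes tested. Where libraries were scaled by their totals alone, 1931 genes rose and 2978 fell in ES8 in place of 2336 and 2365, and 1714 rose and 3207 fell in Rh30 in place of 2473 and 2501. Of the members 3 then rose and 2 fell in ES8, and 1 rose and 3 fell in Rh30.

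PRPF3 (ENSG00000117360; GRCh38 chromosome 1, 150321476 to 150353195, plus strand) encodes a U4/U6 protein that holds the base-paired U4 and U6 snRNAs together with PRPF4. It stood at 47.8, 47.4 and 47.4 CPM in the ES8 sgCTL libraries A, B and C, at 102, 116 and 118 in sgDNAJC17, and at 50.6, 53.0 and 50.7 in ΔRRM. All 3 knockdown libraries thus lay far above the other 6 of the line, and the control and ΔRRM libraries stood close together without overlapping. The log2 fold change on knockdown was 1.25 (SE 0.070, adjusted p = 2.75e-05), a fold of 2.38. In Rh30 the levels were 51.3, 51.0 and 54.7 CPM in sgCTL, 74.4, 76.6 and 80.8 in sgDNAJC17 and 54.8, 61.9 and 55.4 in ΔRRM. Again no knockdown library overlapped with another group, but the rise was smaller, 0.58 on the log2 scale (SE 0.064, adjusted p = 4.67e-05), a fold of 1.49. The difference between the lines was itself past the threshold, with a log2 fold change lower in Rh30 by 0.65 (SE 0.098, adjusted p = 5.31e-04).

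PRPF3 was the only one of the 10 past a fold change of 2 in either knockdown, and was so in ES8. At that stricter call, 1.95% of all genes tested passed in ES8 and 1.55% in Rh30. Both PRPF3 calls were kept in every one of the alternative settings except the one that also asks for a fold change of 2, which the Rh30 rise does not reach. On the RPKM scale the ratio of PRPF3 to PRPF4 within a library had a median of 0.363 in ES8 sgCTL, 0.696 in ES8 sgDNAJC17 and 0.371 in ΔRRM, and no knockdown library was below 0.631. In Rh30 the medians were 0.133, 0.146 and 0.133. The Rh30 ranges were 0.126 to 0.134, 0.143 to 0.150 and 0.129 to 0.144, so that the ΔRRM libraries overlapped with both other groups. PRPF4 itself rose in both lines. The ratio of PRPF3 to PRPF31, the other U4/U6 member, was 0.248 to 0.268 in ES8 sgCTL, 0.483 to 0.698 in sgDNAJC17 and 0.248 to 0.280 in ΔRRM. In Rh30 it was 0.269 to 0.301, 0.468 to 0.557 and 0.361 to 0.425, so that the Rh30 ΔRRM libraries lay between the other groups and overlapped with neither.

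**Figure D2:**
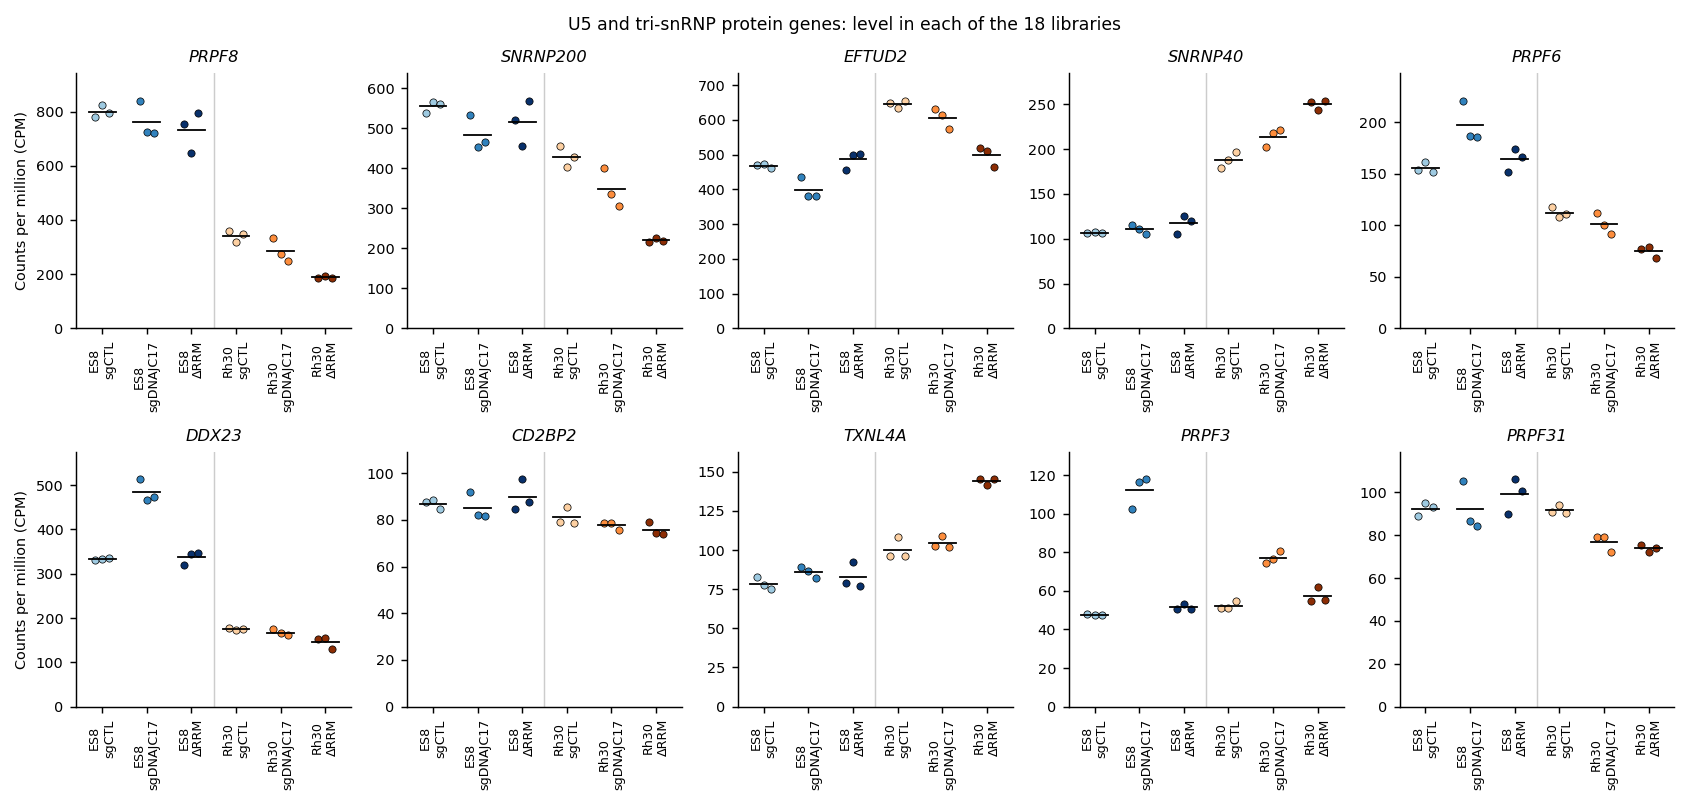
CPM (y axis, linear from 0, own scale for each gene) of each of the 10 genes in the 18 libraries, as points for libraries A, B and C in each group with a bar at the mean. PRPF3 stood at 102 to 118 CPM in ES8 sgDNAJC17 and 74.4 to 80.8 in Rh30 sgDNAJC17, above all other libraries of each line, and PRPF8 and SNRNP200 were lowest in Rh30 ΔRRM.

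DDX23 (ENSG00000174243; chromosome 12, 48829764 to 48852842, minus strand), the helicase that hands the 5′ splice site from U1 to U6, stood at 331, 333 and 336 CPM in ES8 sgCTL and 514, 467 and 474 in ES8 sgDNAJC17. The ΔRRM libraries were at 321, 345 and 347 CPM, on both sides of the controls. The groups of knockdown and control did not overlap and the log2 fold change was 0.55 (SE 0.053, adjusted p = 2.39e-04). In Rh30, where the gene starts from a lower level, it stood at 178, 173 and 176 CPM in sgCTL and 175, 165 and 162 in sgDNAJC17, and these ranges overlapped. The Rh30 log2 fold change was -0.05 (adjusted p = 0.502), and the difference between the lines was -0.58 (SE 0.090, adjusted p = 6.36e-04).

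PRPF6 (ENSG00000101161; chromosome 20, 63981135 to 64033100, plus strand), the bridging protein, followed the pattern of DDX23 at a smaller size. It stood at 154, 161 and 152 CPM in ES8 sgCTL, at 221, 186 and 185 in sgDNAJC17 and at 151, 174 and 166 in ΔRRM. The knockdown libraries were all above the others, library A furthest, and the log2 fold change was 0.35 (SE 0.073, adjusted p = 0.00652). In Rh30 it stood at 117, 108 and 110 CPM in sgCTL and 112, 99.8 and 91.7 in sgDNAJC17. The log2 fold change was -0.13 there (adjusted p = 0.196). With the replicate letter as a block this fall was past the threshold (adjusted p = 0.0121), as it was without Rh30 sgDNAJC17 A (-0.20, adjusted p = 0.0103). The difference between the lines was -0.46 (SE 0.116, adjusted p = 0.0163), and it lost its call when ES8 sgCTL A (adjusted p = 0.0516), ES8 sgCTL C (0.0536) or Rh30 sgDNAJC17 C (0.0502) was left out. Thus 3 of the 10 genes had a knockdown effect that was lower in Rh30 than in ES8 and none one that was higher, where 4.55% of all genes tested were lower and 5.23% higher. That split of 859 lower and 989 higher became 1075 and 640 with library totals alone and 1242 and 607 in 1 fit of all 18 libraries. The 0 higher was also 0 at an unadjusted p under 0.05 and with DESeq2, and became 1, EFTUD2 at 0.25, without ES8 sgDNAJC17 A.

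For PRPF8 and SNRNP200, the largest U5 proteins, 1 of the 4 knockdown tests was past the threshold, the fall of SNRNP200 in Rh30. SNRNP200 (ENSG00000144028; chromosome 2, 96274336 to 96305515, minus strand) stood at 454, 403 and 428 CPM in Rh30 sgCTL and 399.9, 336 and 306 in sgDNAJC17, without overlap, with a log2 fold change of -0.29 (SE 0.083, adjusted p = 0.0167). The call was lost without Rh30 sgCTL A or C or sgDNAJC17 B or C (adjusted p = 0.0522 to 0.0848). In ES8 it was at 539, 566 and 561 CPM in sgCTL and 532, 452 and 465 in sgDNAJC17, also without overlap, where the fold change of -0.19 missed the threshold (adjusted p = 0.0528). Without ES8 sgDNAJC17 A, the library that stood apart, it was -0.26 (adjusted p = 1.69e-10). This ES8 fall was called in 5 of 17 alternative fits. With a correction for GC content and length and the replicate letter as a block, SNRNP200 was called lower in both lines (ES8 -0.12, adjusted p = 0.0322, and Rh30 -0.11, adjusted p = 0.00549). PRPF8 (ENSG00000174231; chromosome 17, 1650629 to 1684882, minus strand) stood at 358, 317 and 347 CPM in Rh30 sgCTL and 335, 274 and 249 in sgDNAJC17, and these ranges overlapped. Its log2 fold change of -0.24 missed the threshold (adjusted p = 0.0518). It passed in 7 of 17 alternative fits, among them with the letter as a block (adjusted p = 7.33e-05) and without sgDNAJC17 A (-0.36, adjusted p = 9.22e-06). DESeq2, which the paper used, called 5 of the 10 genes in this Rh30 comparison in place of 4. Over all genes it called 2419 higher and 2470 lower, in place of 2473 and 2501. In ES8, PRPF8 was at 781, 825 and 795 CPM against 841, 724 and 721, a log2 fold change of -0.06 (adjusted p = 0.528) that became -0.14 (adjusted p = 1.38e-04) without library A. Within a library the ratio of PRPF8 to SNRNP200 in RPKM was 1.36 to 1.40 in ES8 sgCTL, 1.49 to 1.54 in sgDNAJC17 and 1.35 to 1.40 in ΔRRM. In Rh30 it was 0.758 to 0.781, 0.785 to 0.805 and 0.812 to 0.831, so that the knockdown libraries lay above the controls without overlap in both lines and the ΔRRM libraries did so in Rh30. The Rh30 control and knockdown libraries were separated only narrowly (0.781 against 0.785), and the ratio was not tested.

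EFTUD2 stood at 471, 472 and 461 CPM in ES8 sgCTL and 436, 382 and 380.0 in sgDNAJC17, a log2 fold change of -0.22 (SE 0.061, adjusted p = 0.0243). This call was lost when any one of 5 of the 6 libraries was left out (adjusted p = 0.0768 to 0.0958) and kept only without sgDNAJC17 A. In Rh30 its fold change was -0.08 (adjusted p = 0.352). PRPF31 (ENSG00000105618; chromosome 19, 54115410 to 54131719, plus strand), which binds the U4 snRNA with SNU13, stood at 90.8, 94.3 and 90.3 CPM in Rh30 sgCTL and 79.0, 79.3 and 72.1 in sgDNAJC17. The groups did not overlap and the log2 fold change was -0.24 (SE 0.061, adjusted p = 0.00842). In ES8 PRPF31 changed by 0.01 (adjusted p = 0.959). Of its exonic bases, 32.0% overlap TFPT or PRPF31-AS1 on the opposite strand, and the counting is not stated to use strand, so reads of these genes cannot be told apart there.

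SNRNP40, a WD-repeat protein of U5, stood at 179, 188 and 197 CPM in Rh30 sgCTL and 203, 218 and 222 in sgDNAJC17, a log2 fold change of 0.20 (SE 0.064, adjusted p = 0.0251) that lost its call without any one of 4 of the 6 libraries (Rh30 sgCTL A or B, sgDNAJC17 B or C, adjusted p up to 0.119). In ES8 its fold change was 0.06 (adjusted p = 0.437). TXNL4A, the small thioredoxin-fold protein, changed by 0.14 in ES8 (adjusted p = 0.126, and 0.0304 without sgDNAJC17 A) and 0.07 in Rh30 (adjusted p = 0.421). CD2BP2 was the steadiest of the 10, with fold changes of -0.02 and -0.05 and group means that differed by at most 1.18-fold over all 6 groups.

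The replicate letters paired the Rh30 knockdown and control libraries, and with the letter as a block 4 members fell in that comparison in place of 2, the added ones being PRPF8 and PRPF6. Calls grew over all genes tested too, to 3621 higher and 3614 lower in place of 2473 and 2501. Correcting for GC content and length, a step added after seeing the data, took the calls of SNRNP200 (-0.10, adjusted p = 0.145) and SNRNP40 (0.08, adjusted p = 0.179) in Rh30 and left those of PRPF3 (0.56) and PRPF31 (-0.18). With the block and the correction together 4 rose and 2 fell: SNRNP200 (-0.11, adjusted p = 0.00549) and SNRNP40 (0.08, adjusted p = 0.0247) were called, EFTUD2 (0.10, adjusted p = 0.00237) and TXNL4A (0.09, adjusted p = 0.0344) were called higher, and PRPF8 (-0.04) and PRPF6 (-0.08) were not called. Over all genes 3474 rose and 3057 fell in that fit, and 2579 and 2243 with the correction alone.

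**Figure D3:**
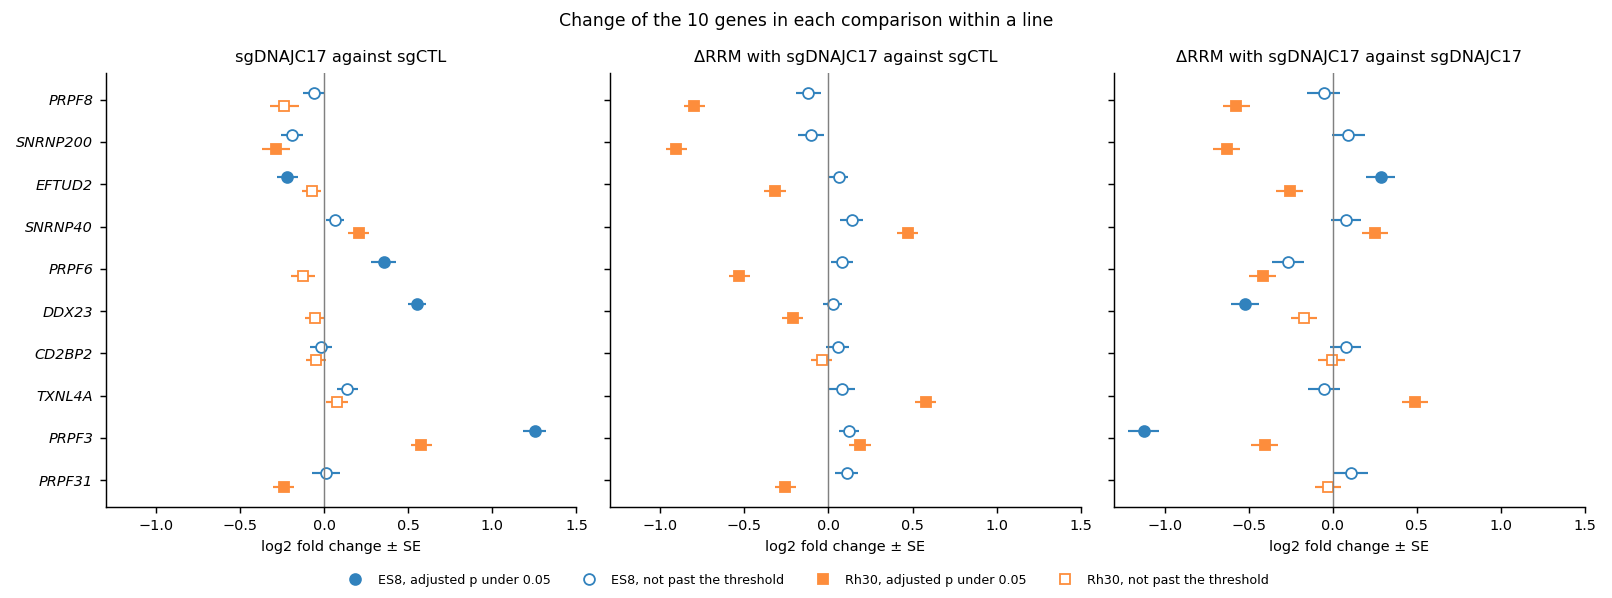
Log2 fold change (x axis) with its standard error for each of the 10 genes in the 3 comparisons within ES8 (circles, blue) and Rh30 (squares, orange), with filled symbols for an adjusted p under 0.05. PRPF3 rose by 1.25 and 0.58 on knockdown, no ES8 gene was called between ΔRRM and control cells, and 9 of 10 were called in Rh30.

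Most other genes of the pathway that were called on knockdown went up. Beside them, 13.6% of all genes tested rose and 13.8% fell in ES8, and 16.1% and 16.2% in Rh30. The share called alike in both lines was not determined over all genes. Among all genes, those under 2 kb of exon had median log2 fold changes of 0.11 in ES8 and 0.12 in Rh30. Genes over 5 kb had -0.08 and -0.06. The part of length in the counts of these lists was not tested beyond the GC and length correction. Of the 7 Sm proteins, which form the ring on the U1, U2, U4 and U5 snRNAs, 7 rose in ES8 (median log2 fold change 0.27) and 7 in Rh30 (0.32). SNRPD2 (0.44 in ES8 and 0.32 in Rh30), SNRPD1 (0.28 and 0.48), SNRPG (0.29 and 0.47) and SNRPB (0.27 and 0.44) moved most. With the GC and length correction 7 rose in ES8 and 5 in Rh30, where SNRPD3 (0.05) and SNRPE (0.06) lost their calls. Of 6 other tri-snRNP proteins, 3 rose in ES8 and 5 in Rh30. Those called in both were PRPF4 (0.36 and 0.42), the partner of PRPF3, SNU13 (0.42 and 0.51), which binds a bend in U4 snRNA, and USP39 (0.44 and 0.38), a factor needed to recruit the tri-snRNP. Of LSM2 to LSM8, the ring on U6 snRNA, 3 rose in ES8 and 5 in Rh30, with LSM6 (0.29 and 0.53), LSM3 (0.27 and 0.41) and LSM4 (0.32 and 0.21) called in both. With the GC and length correction LSM5 (0.13), LSM7 (0.14) and, of the other tri-snRNP proteins, SNRNP27 (0.21) were also called higher in ES8.

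Of 10 assembly and recycling factors, 3 rose and 1 fell in ES8, and 3 rose and 2 fell in Rh30. ZNHIT2 (0.76 and 0.50) and AAR2 (0.34 and 0.21), which acts on PRPF8 during U5 assembly, rose in both lines. With the GC and length correction AAR2, TSSC4, ECD, ZNHIT2 and RUVBL1 were called higher in ES8, and TTC27, RUVBL2 and RPAP3 lower. The medians of these 4 lists lay between 0.05 and 0.28 for ES8, and for Rh30 they lay between 0.13 and 0.40, and without ES8 sgDNAJC17 A the ES8 counts were 7 Sm, 4 other tri-snRNP, 5 LSM and 4 assembly genes up and 3 assembly genes down. The ES8 counts of Sm and LSM genes up were lower without any other library: 3 and 1 without sgCTL A, 2 and 1 without sgCTL B, 2 and 1 without sgCTL C, 4 and 1 without sgDNAJC17 B, and 5 and 2 without sgDNAJC17 C. In Rh30 they were 5 to 7 and 3 to 5 over the libraries left out, with the 3 LSM genes without sgDNAJC17 B. Assembly genes down in ES8 were 0 without any one of the sgCTL libraries, and those up in Rh30 were 5 without sgDNAJC17 A and 2 without sgCTL C or sgDNAJC17 B. The 7 U5 and U4 snRNA genes, whose transcripts carry no poly(A) tail, summed to between 1 and 12 reads per library and were not tested.

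**Figure D4:**
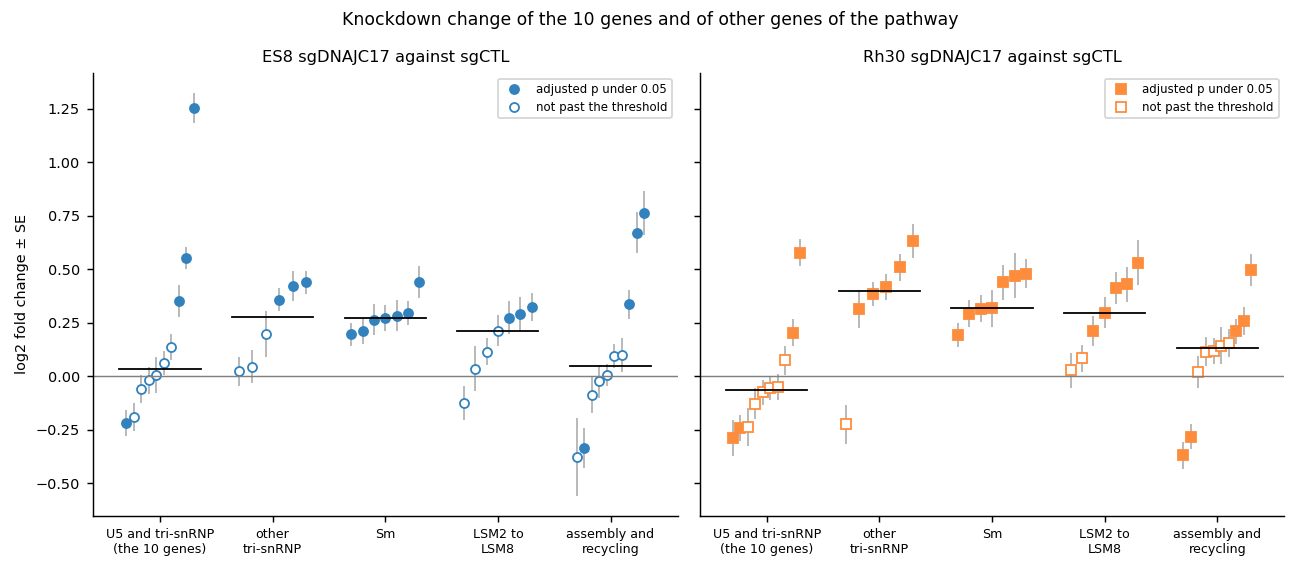
Log2 fold change on knockdown (y axis) with its standard error for the 10 genes and 4 further lists of the pathway, in ES8 (left) and Rh30 (right), ordered by size within a list, filled for an adjusted p under 0.05 and with a bar at the list's median. The 7 Sm genes were all called higher in both lines, while the 10 genes spread from -0.22 to 1.25 (ES8) and from -0.29 to 0.58 (Rh30).

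Cells carrying the ΔRRM protein and sgDNAJC17 were compared with control cells to ask whether DNAJC17 without its RNA recognition motif leaves the transcriptome as in unperturbed cells. In ES8, 0 of the 10 genes were called (edgeR's quasi-likelihood test), 0 passed an unadjusted p under 0.05 and 0 were called by DESeq2. The count was also 0 with any single library left out, ΔRRM B among them. Their log2 fold changes ran from -0.12 for PRPF8 to 0.14 for SNRNP40, with standard errors of 0.055 to 0.076. PRPF3 changed by 0.12 (adjusted p = 0.409), DDX23 by 0.03 and PRPF6 by 0.08. Of all genes tested in this comparison, 0.0930% were higher and 0.0814% lower, and 0.0349% passed with a fold change of 2. Of the 30 genes in the 4 pathway lists, 0 were called.

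Set directly against the ES8 knockdown, a comparison that uses the ΔRRM libraries again, the ΔRRM cells had lower PRPF3, with a log2 fold change of -1.12 (SE 0.092, adjusted p = 6.30e-05), and lower DDX23, by -0.52 (SE 0.081, adjusted p = 0.00228). EFTUD2 was higher by 0.29 (SE 0.086, adjusted p = 0.0421), a call that was lost with the letter as a block (adjusted p = 0.135) and without 5 of the 6 libraries (all but sgDNAJC17 A). PRPF6 was at -0.27 (adjusted p = 0.0757). Thus 1 of 10 was higher and 2 lower, where 7.35% and 7.36% of all genes tested were. PRPF3 was again the one member past a fold of 2, as were 1.97% of all genes.

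In Rh30 the ΔRRM cells differed from control cells in 9 of the 10 genes: 3 were higher and 6 lower. Differences were widespread in this comparison, with 33.8% of all genes tested higher, 35.0% lower and 9.97% past a fold of 2, a size that none of the 10 reached. With library totals alone 3585 genes were higher and 7226 lower in place of 5216 and 5410, and 2 members were higher and 7 lower. SNRNP200 stood at 217, 225 and 219 CPM against 454, 403 and 428 in control cells, less than in any other library, with a log2 fold change of -0.90 (SE 0.063, adjusted p = 1.75e-19). PRPF8 stood at 187, 194 and 185 CPM against 358, 317 and 347, a log2 fold change of -0.80 (SE 0.063, adjusted p = 2.13e-17). PRPF6, at 76.4, 78.5 and 68.5 CPM, fell by 0.53 on the log2 scale (SE 0.063, adjusted p = 4.86e-11). EFTUD2 (-0.32), PRPF31 (-0.26) and DDX23 (-0.21) fell by less.

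The genes that rose were TXNL4A, at 145, 142 and 145 CPM against 96.5, 108 and 96.5, by 0.58 (SE 0.063, adjusted p = 2.50e-12), and SNRNP40, at 253, 243 and 254 CPM against 179, 188 and 197, by 0.47 (SE 0.062, adjusted p = 1.22e-09). The PRPF3 rise of 0.19 (SE 0.066, adjusted p = 0.00958) was lost without Rh30 sgCTL B (adjusted p = 0.0615) or ΔRRM B (0.0563), and turned to -0.05 where libraries were scaled by their totals alone, a scaling that moves the median of all genes to -0.25. CD2BP2 did not pass (-0.04, adjusted p = 0.571). In the same comparison 7 of 7 Sm proteins and 7 of 7 of LSM2 to LSM8 rose, with medians of 0.95 and 0.91. SNRPG (1.47), SNRPD2 (1.18), SNRPB (1.03), LSM6 (1.08), LSM2 (1.07), LSM5 (1.00) and PPIH (1.00), a cyclophilin of the tri-snRNP, passed a fold of 2. With library totals alone 6 Sm and 7 LSM genes rose. With the GC and length correction 5 Sm and 6 LSM genes rose, SNRPD3 turned from 0.22 to -0.14 and was called lower, and SNRPE (-0.07) and LSM8 (0.09) were not called. The 5 rhabdomyosarcoma markers all fell, from a sum of 2976 to 3075 CPM to 1965 to 2164.

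Length and GC content moved with these Rh30 differences across all genes. Genes of under 2 kb of exon had a median log2 fold change of 0.37 between ΔRRM and control cells, genes of 2 to 5 kb 0.07 and genes over 5 kb -0.23, and genes under 45% GC had 0.28 against -0.37 for those over 55%. SNRNP200, PRPF8 and EFTUD2 have 10926, 11355 and 10375 bases of exon and 52.3, 52.7 and 52.1% GC, while SNRNP40 has 3881 bases and 40.9%. TXNL4A and PRPF3 rose, with annotated exons that sum to over 5 kb, which need not be the length of the transcripts expressed. They have 5231 and 5373 bases and 49.6 and 46.2% GC. PRPF6, DDX23, CD2BP2 and PRPF31 have 3044, 5419, 3773 and 2673 bases and 57.0, 51.8, 57.0 and 58.9% GC. With the GC and length correction SNRNP200 was at -0.44 (SE 0.048, adjusted p = 4.88e-09) and PRPF8 at -0.31 (SE 0.048, adjusted p = 2.69e-06), both still called, and PRPF6 was at -0.46, PRPF31 at -0.19, TXNL4A at 0.67, PRPF3 at 0.21 and SNRNP40 at 0.18. The DDX23 call was lost (-0.04, adjusted p = 0.476), EFTUD2 turned to 0.13 (adjusted p = 0.0388) and CD2BP2 was called at 0.13 (adjusted p = 0.0303). The part of length and GC in the uncorrected values was not tested beyond this. In ES8 the same medians ran only from -0.05 to 0.07.

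**Figure D5:**
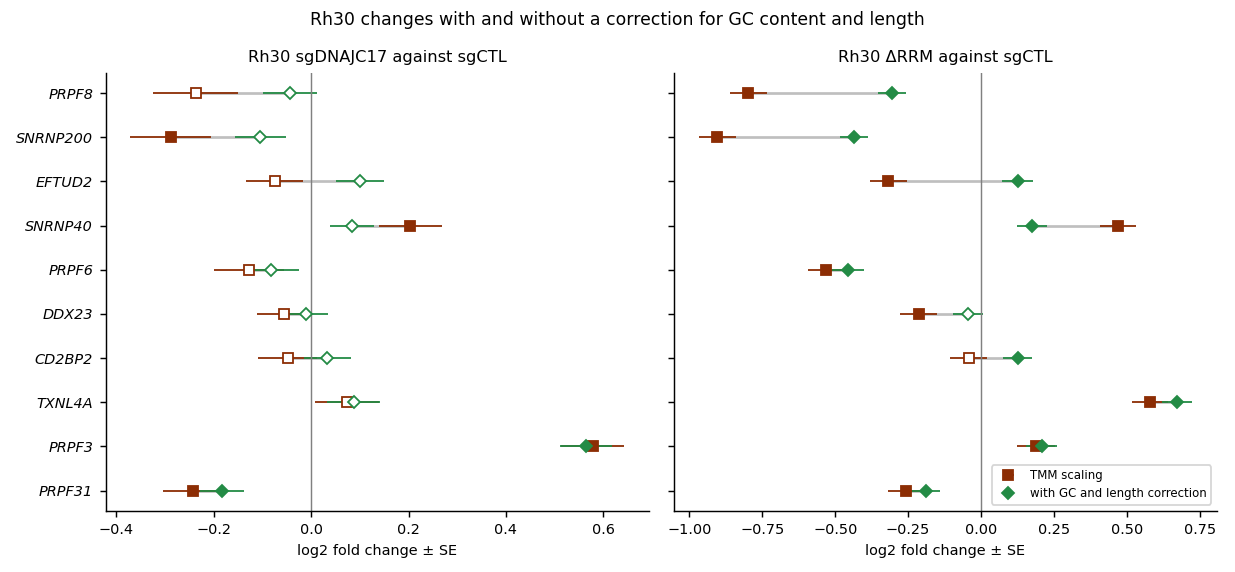
Log2 fold change (x axis, different scale in each panel) with its standard error for the 10 genes in Rh30, for the knockdown (left) and ΔRRM cells (right) against sgCTL, with TMM scaling (squares) and with the GC and length correction added (diamonds), filled for an adjusted p under 0.05. In ΔRRM cells SNRNP200 moved from -0.90 to -0.44 and EFTUD2 from -0.32 to 0.13, while PRPF3 moved little in either panel.

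Against the Rh30 knockdown, the ΔRRM cells had lower PRPF3 (-0.40, SE 0.080, adjusted p = 9.67e-06), as in ES8. SNRNP200 (-0.63), PRPF8 (-0.57), PRPF6 (-0.42) and EFTUD2 (-0.26) were also lower, and TXNL4A (0.49) and SNRNP40 (0.25) higher, so that 2 of the 10 were higher and 5 lower, beside 29.4% and 30.5% of all genes tested, with 7.79% past a fold of 2 and no member among them. With library totals alone 3220 genes were higher and 6226 lower in place of 4505 and 4676. The SNRNP40 and EFTUD2 differences were not called with the GC and length correction (0.09 and 0.01). DDX23 missed the threshold at -0.17 (adjusted p = 0.0513), and PRPF31 (-0.03) and CD2BP2 (-0.01) were not called. PIH1D1, an assembly factor, was the one pathway gene past a fold of 2, at 1.11.

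The ΔRRM effect against control differed between the lines for 8 of the 10 genes, 2 higher and 6 lower in Rh30 than in ES8, where 19.9% of all genes tested were higher and 21.5% lower. With library totals alone 2486 genes were higher and 5712 lower in place of 3758 and 4045, and 1 member was higher and 7 lower. SNRNP200 (-0.80), PRPF8 (-0.68), PRPF6 (-0.61), EFTUD2 (-0.38), PRPF31 (-0.36) and DDX23 (-0.24) were lower, and TXNL4A (0.50) and SNRNP40 (0.33) higher. The DDX23 difference was lost without ES8 sgCTL A (adjusted p = 0.0605), ES8 ΔRRM C (0.0639) or Rh30 ΔRRM C (0.119), and with the GC and length correction, which also took the calls of EFTUD2 (-0.04) and SNRNP40 (0.06). PRPF3 (0.07, adjusted p = 0.600) and CD2BP2 (-0.09, adjusted p = 0.447) were not called.

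Over all 18 libraries the 3 other genes whose log2 CPM, centred on the mean of the line, lay closest to the mean profile of the 10 were PCBP2, an RNA-binding protein, with a root mean square difference of 0.026, LARS2, the mitochondrial leucyl-tRNA synthetase, at 0.034 and PSMF1, a proteasome inhibitor, at 0.048. The median over the 9643 genes compared was 0.225. The mean was taken over all 10 because only PRPF3 was called alike in both knockdowns. The 10 moved in opposite directions, as SNRNP200 (-0.90) and TXNL4A (0.58) did between Rh30 ΔRRM and control cells. Likeness to their mean is therefore not likeness to any single member.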

How the data were processed

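The authors deposited raw counts of reads per gene, 1 file for each of the 18 libraries, for 57500 genes with Ensembl identifiers. Per the labels, poly(A)-selected libraries were prepared with the NEBNext Ultra kit. The submitters' processing notes name Trimmomatic 0.36, STAR 2.5.2b, featureCounts and Subread 1.5.2 with GRCh38. Gene positions in the files matched GRCh38: 87.8% of 38146 genes began within 1 kb of their RefSeq position. Whether counting used strand is not given in the sources used here, which matters for PRPF31 and DNAJC17. Symbols were found for 55082 genes by identifier, all 10 members among them.

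Each comparison was fitted with edgeR 4.0.16 (R 4.3.3) on the libraries of its groups only, with TMM scaling, edgeR's filter on low counts by group, the quasi-likelihood test and Benjamini-Hochberg adjustment over all genes tested. A gene was called at an adjusted p under 0.05, and separately with a fold change of at least 2. A difference between lines is the interaction term. CPM and RPKM use 1 TMM scaling over the 18 libraries and the summed exonic length in the files, and a median, lowest and highest are over the 3 libraries of a group. TMM takes most genes to be unchanged in total, so a shift of all mRNA would not be seen. In bulk RNA, fewer cells of a kind and less RNA per cell cannot be told apart.

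Alternatives were DESeq2 1.42.0, its size factors, library totals alone, other filters and thresholds, a block for the replicate letter, 1 fit of all libraries, and each library left out. After seeing the data, a correction of each library's counts for GC content and exonic length (lowess, span 0.3) was added. GC content was that of the longest annotated transcript of each gene, and exonic length that of all its annotated exons. Letters pair samples where same-lettered libraries deviate together: over genes that averaged 100 counts or more, the correlations of deviations were 0.576, 0.287 and 0.348 for A, B and C in the Rh30 knockdown, all above 0.1, and such pairing was found in no other comparison. The fits of the ES8 knockdown and of the knockdown difference between lines were also run on simulated counts with known changes. These had a single dispersion for all genes and no outlying library, pairing or GC and length trend. They therefore do not bear on such features of the data.

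The members and lists were chosen with earlier results of these data known. The text names all 10 members, DNAJC17, of each pathway list up to 4 genes called alike in both knockdowns, by mean size, and any past a fold of 2 within a line. Some further list genes are named for their calls with the GC and length correction. The 3 genes most like the mean profile of the members had a mean CPM of at least 10, with a prior count of 2. Splice junctions and exon usage were not analysed here.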

Additional observations from a re-analysis of the deposited data

Results flagged for a closer look

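The following results were set aside because the effect of the same contrast differed between ES8 and Rh30 by the interaction term of edgeR's quasi-likelihood test. For the knockdown these were PRPF3 (Rh30 minus ES8, -0.65 on the log2 scale, SE 0.098, adjusted p = 5.31e-04), which rose in both lines and by more in ES8, DDX23 (-0.58, SE 0.090, adjusted p = 6.36e-04) and PRPF6 (-0.46, SE 0.116, adjusted p = 0.0163), which rose in ES8 and had values of -0.05 and -0.13 in Rh30.

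For ΔRRM cells against control cells the difference was -0.80 for SNRNP200 (adjusted p = 9.60e-07), -0.68 for PRPF8 (adjusted p = 6.23e-06), -0.61 for PRPF6 (adjusted p = 7.73e-06), 0.50 for TXNL4A (adjusted p = 2.31e-04), -0.38 for EFTUD2 (adjusted p = 4.70e-04), -0.36 for PRPF31 (adjusted p = 0.00203), 0.33 for SNRNP40 (adjusted p = 0.00444) and -0.24 for DDX23 (adjusted p = 0.0279). In ES8 none of these 8 genes was called between ΔRRM and control cells. Across all genes tested 19.9% were higher and 21.5% lower in Rh30 than in ES8 in this contrast, and with the GC and length correction EFTUD2, SNRNP40 and DDX23 were no longer among them.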

How the results depend on the processing

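The 9 comparisons were recomputed under 11 other settings and without each library in turn, which gave 1650 recomputed log2 fold changes, of which 1445 kept their direction and their side of the threshold, and 330 recomputed counts of members called, of which 209 were equal to the count in the report and 60 differed from it by more than 1.5 times. The rise of PRPF3 in both knockdowns, the rise of DDX23 and PRPF6 in ES8, and the fall of PRPF31 in Rh30 kept their calls in all of these except where a fold change of 2 was also required, which PRPF3 in ES8 met. With 3 libraries a group, changes such as those of EFTUD2 in ES8 and of SNRNP200 and SNRNP40 in Rh30 stood near the threshold. The causes of the shifts below were not tested.

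Requiring a fold of 2 left 1 member up and 0 down in the ES8 knockdown, none (0 and 0) in that of Rh30, 0 and 0 between Rh30 ΔRRM and control cells, 0 up and 1 down between ES8 ΔRRM and knockdown cells, 0 and 0 between Rh30 ΔRRM and knockdown cells, 0 down in the knockdown difference between lines, 0 and 0 in the ΔRRM difference, and 0 higher and 1 lower between the controls. At an adjusted p under 0.01, 0 fell in the ES8 knockdown, 1 rose and 1 fell in that of Rh30, and 0 were higher in ES8 ΔRRM than knockdown cells.

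With library totals alone, 2 members fell in the ES8 knockdown, 1 rose in the Rh30 knockdown, 1 was higher in Rh30 ΔRRM than knockdown cells, and 1 was higher in the ΔRRM difference between lines. PRPF31 in the ES8 knockdown turned to -0.0413, and PRPF3 turned to -0.0468 between Rh30 ΔRRM and control cells, to -0.147 in the ΔRRM difference and to -0.0917 between the controls. This scaling moved the median of all genes by over 0.1 in these last 3 comparisons, to -0.25, -0.23 and -0.28, and in Rh30 ΔRRM against knockdown cells to -0.17. Without a filter on low counts 2 members fell in the ES8 knockdown. With all 18 libraries in 1 fit, CD2BP2 in the ES8 knockdown turned to 0.00439 and PRPF31 between the controls to 0.00395. With the size factors of DESeq2 in edgeR, 0 members were higher in ES8 ΔRRM than knockdown cells, and with these and with DESeq2 itself CD2BP2 in Rh30 turned to 0.00376 in ΔRRM against knockdown cells.

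With the replicate block, 4 members fell in the Rh30 knockdown and 0 were higher in ES8 ΔRRM than knockdown cells. Over all genes tested, 3621 rose and 3614 fell in the former, in place of 2473 and 2501. In the latter 618 were higher and 735 lower, in place of 1257 and 1259. The block changed the calls of PRPF8, PRPF6 and EFTUD2 in these comparisons and no other call of a member. In the other comparisons the letters did not pair the samples: in the ES8 knockdown the correlations were -0.136, -0.372 and 0.326, and in the other 5 pairs of groups they ran from -0.547 to 0.0853.

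With the GC and length correction, without and with the replicate block, 2 members fell in the ES8 knockdown (both fits), 1 (4 with the block) rose in the Rh30 knockdown, 1 was higher in Rh30 ΔRRM than knockdown cells (both), 1 (2 with the block) was higher in the knockdown difference between lines, and 1 was higher in the ΔRRM difference (both). Without the block, 1 fell in the Rh30 knockdown and 5 were higher in Rh30 ΔRRM than control cells. Over all genes tested, 2579 rose and 2243 fell in the Rh30 knockdown with the correction, and 3474 and 3057 with the block too. The signs of these values turned: in the ES8 knockdown PRPF8 (0.0124, 0.0116 with the block) and PRPF31 (-0.0652, -0.0652), in the Rh30 knockdown EFTUD2 (0.0996, 0.0998) and CD2BP2 (0.0335, 0.0345), between Rh30 ΔRRM and control cells EFTUD2 (0.125, 0.125) and CD2BP2 (0.126, 0.126), between Rh30 ΔRRM and knockdown cells EFTUD2 (0.00984, 0.00913) and CD2BP2 (0.0787, 0.0787), in the knockdown difference SNRNP200 (0.0585, 0.0576), CD2BP2 (0.169, 0.170) and TXNL4A (0.0207, 0.0221), in the ΔRRM difference CD2BP2 (0.127, 0.128), and between the controls PRPF31 (0.0659, 0.0659).

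Leaving out single libraries gave 0 to 3 members down in the ES8 knockdown (3 without sgDNAJC17 A, 0 without any other), 1 to 2 up and 1 to 4 down in the Rh30 knockdown (4 without sgDNAJC17 A), 0 to 1 higher in ES8 ΔRRM than knockdown cells, and 0 to 1 higher in the knockdown difference (1 without ES8 sgDNAJC17 A). The values that turned sign were not called in any of these fits. They ranged in the ES8 knockdown from -0.0971 to 0.0662 for PRPF31 and from -0.0735 to 0.00877 for CD2BP2, between ES8 ΔRRM and control cells from -0.0037 to 0.0872 for CD2BP2 and from -0.00349 to 0.132 for TXNL4A, between ES8 ΔRRM and knockdown cells from -0.109 to 0.0336 for PRPF8 and from -0.135 to 0.00273 for TXNL4A, between Rh30 ΔRRM and knockdown cells from -0.0343 to 0.0236 for CD2BP2 and from -0.0677 to 0.00316 for PRPF31, in the knockdown difference from -0.0839 to 0.0669 for CD2BP2 and from -0.174 to 0.0172 for SNRNP200 and from -0.128 to 0.0215 for TXNL4A, and between the controls from -0.0539 to 0.000241 for PRPF31. The ES8 rise of PRPF6 came closest to losing its call without ES8 sgCTL C (adjusted p = 0.0427), and the Rh30 fall of PRPF31 without Rh30 sgCTL B (-0.223, adjusted p = 0.04996).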
